A study of Homo sapiens with 12 samples.

Results

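The comparison described here is the effect of a small interfering RNA (siRNA) against paxillin on the transcriptome of androgen-treated prostate cancer cells. Its members were the libraries labelled with dihydrotestosterone (DHT) treatment and either paxillin or nonspecific siRNA, 3 a side, or 6 of the 12 libraries of the series. All genes with enough counts were described, which were 16115 of the 56269 in the count table. The cells were C4-2, a prostate cancer line derived from LNCaP that grows without androgen support. They carried the siRNA for 48 h, were held in medium without serum for 12 h, and received 2.5 nM DHT for 24 h before mRNA was sequenced with a stranded kit. The remaining 6 libraries had the same siRNAs with ethanol vehicle in place of DHT. Whether the replicates of a group came from separate cultures is not stated in the labels, so p-values measure only the spread between these samples, which may be technical.

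Paxillin, the product of PXN, is a scaffold protein of focal adhesions, the sites where integrins couple the extracellular matrix to actin filaments. It has no enzyme activity; its LD motifs bind focal adhesion kinase and vinculin, and its LIM domains place it at the membrane. In prostate cells it is also known to relay growth factor and androgen signals to the ERK kinases in the cytoplasm and to act in the nucleus as well. DHT is the most potent natural androgen.

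Totals of the 6 libraries ran from 24207745 to 32040465 counts, where 1 count was worth 0.0328 to 0.0436 CPM, a count scaled to the size of its library. CPM values are not corrected for gene length, so levels are compared only within a gene. All 17 markers of prostate luminal epithelium passed the filter on low counts, with summed levels of 18500 to 19700 CPM in the nonspecific and 18000 to 18900 CPM in the paxillin siRNA libraries. Of 18 markers of basal, immune, endothelial and stromal cells, 4 passed the filter, with sums of 47.2 to 52.2 CPM and 38.1 to 44.2 CPM. PTPRC, CD3E, DCN and DES were at 0 in all 6 libraries, and the other markers that missed the filter reached at most 16 counts. COL1A1, a collagen chain, made up most of that sum and fell from a mean of 35.8 to 26.3 CPM. In bulk RNA such as this, fewer cells of a type and less RNA per cell cannot be told apart.

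The targeted gene was checked first. PXN (ENSG00000089159 in GENCODE 29, chr12:120210439-120265771, minus strand) stood at 136, 121 and 122 CPM in the 3 nonspecific siRNA libraries with DHT. It stood at 14.2, 11.3 and 9.36 CPM in the 3 paxillin siRNA libraries with DHT. The groups did not overlap, and the mean was 90.8% lower with paxillin siRNA. In the fit the log2 fold change was -3.44 ± 0.12 (SE), with an adjusted p of 8.1e-12 by edgeR's quasi-likelihood test with Benjamini-Hochberg adjustment over all genes tested. The vehicle libraries held 149, 139 and 151 CPM with nonspecific and 16.7, 12.4 and 12.3 CPM with paxillin siRNA, so all 12 labels matched the level of the targeted gene.

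Paxillin has a pair of close relatives. LPXN, which encodes leupaxin, was low in both groups, at 2.10 to 3.09 CPM with nonspecific and 2.68 to 3.30 CPM with paxillin siRNA, and was not called (log2 fold change 0.12 ± 0.19, edgeR adjusted p = 0.73). TGFB1I1, which encodes Hic-5, had 0 to 2 counts in each of the 6 libraries and did not pass the filter.

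With paxillin siRNA under DHT, 1021 genes rose (6.34% of the 16115 tested) and 1128 fell (7%) at an adjusted p under 0.05 by edgeR's quasi-likelihood test with Benjamini-Hochberg adjustment. Most of the changes were small. The median absolute log2 fold change of the called genes was 0.449, and 1345 of the 2149 called genes (62.6%; the 2149 are 13.3% of those tested) changed less than 1.5-fold. Changes of at least 2-fold were called for 173 rises (1.07%) and 279 falls (1.73%). Over all genes tested the median log2 fold change was 0.0021. The 3 libraries of one group lay above all 3 of the other for 2592 genes (16.1%) that were higher and 2575 (16%) that were lower with paxillin siRNA.

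The replicate numbers in the labels pair the libraries, and a fit with the number as a block called 1681 rises (10.4%) and 1805 falls (11.2%), 21.6% of the genes tested in all. None of the 2149 calls was lost or turned in that fit. The counts depended on single libraries: without paxillin siRNA DHT replicate 3 there were 484 rises and 694 falls, without nonspecific DHT replicate 2 there were 546 and 723, and without paxillin siRNA DHT replicate 2 there were 626 rises.

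**Figure D1:**
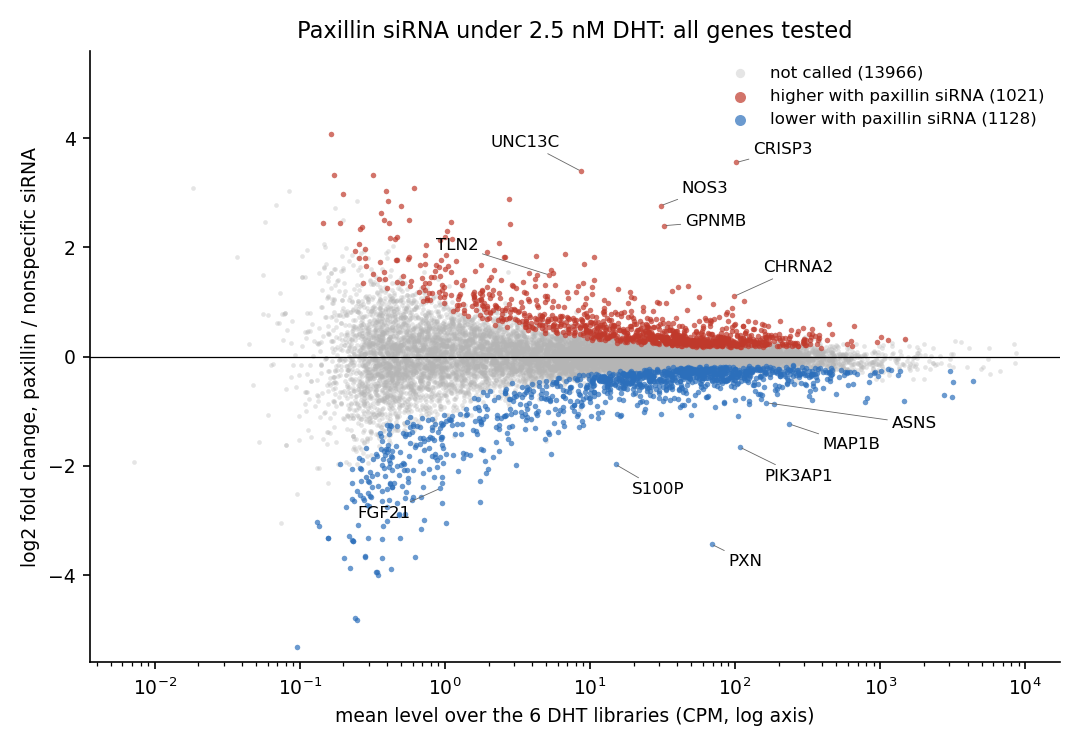
Each dot is 1 of the 16115 genes tested, placed by its mean level over the 6 DHT libraries (CPM, log axis) and its log2 fold change of paxillin over nonspecific siRNA. The 1021 genes called higher are red and the 1128 called lower are blue; PXN lies lowest among genes above 10 CPM, and many of the falls beyond 2-fold lie at levels under 1 CPM.

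The falls beyond 2-fold were mostly not protein coding genes. Of the 279, 122 were annotated pseudogenes, 70 had no match in GENCODE 29 and 80 were protein coding, of which 20 reached 5 CPM. Of the 173 rises beyond 2-fold, 5 were pseudogenes and 131 were protein coding, 44 of them with at least 5 CPM. Among all 12862 protein coding genes tested, the directions were close to even, with 930 rises and 887 falls. Among the 630 pseudogenes tested, 135 fell (21.4%) and 10 rose.

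Copies of EEF1A1, which encodes a translation elongation factor, show the pattern. The 26 EEF1A1 pseudogenes tested summed to 56.5, 56.7 and 49.7 CPM in the nonspecific siRNA libraries with DHT. They summed to 24.5, 23.9 and 22.8 CPM in the paxillin siRNA libraries with DHT, and 22 of the 26 were called lower. EEF1A1 itself was not called (log2 fold change -0.22, edgeR adjusted p = 0.157). The 11 GAPDH pseudogenes summed to 11.4 to 12.0 CPM and to 3.38 to 3.46 CPM, with 7 called lower, while the parent gene had a log2 fold change of -0.19 and was not called.

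Reads of such copies can be assigned to the parent or to a sister copy, so single pseudogenes are uncertain. The filter on low counts could be met by the 3 libraries of a single group. A scarce copy could thus be tested through the nonspecific siRNA libraries alone, where it was higher. EEF1A1P26, for example, had 35 counts in the nonspecific and 0 in the paxillin siRNA libraries with DHT. The shares and sums of falling copies are therefore not independent of the filter and are a description. The number of pseudogenes with at least 1 count was 2575 to 2696 in the nonspecific and 1590 to 1745 in the paxillin siRNA libraries with DHT. In vehicle it was 1670 to 1744 with paxillin siRNA and 2642 and 2629 in nonspecific replicates 2 and 3, but 1696 in nonspecific replicate 1, the shallowest library of the series at 11944906 counts. The share of all counts that lay in pseudogenes moved less. Under DHT it was 0.251 to 0.262% with nonspecific and 0.233 to 0.236% with paxillin siRNA. The shares in vehicle overlapped, at 0.252 to 0.283% with nonspecific and 0.253 to 0.257% with paxillin siRNA. In vehicle 119 pseudogenes fell and 15 rose, and no pseudogene was called for a difference between the arms. The part of this shift in other results was not tested; the gene groups below hold no pseudogenes.

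Among non-overlapping genes that reached 5 CPM, the largest rises were led by CRISP3, which encodes a secreted cysteine-rich protein of the male reproductive tract. CRISP3 was at 19.4, 14.6 and 14.1 CPM with nonspecific and at 107, 171 and 287 CPM with paxillin siRNA under DHT. The spread was wide among the paxillin siRNA libraries. The log2 fold change was 3.55 ± 0.40 (11.7-fold, edgeR adjusted p = 3.7e-05). UNC13C, a member of a family of synaptic vesicle priming proteins, went from 1.16, 1.70 and 1.61 CPM to 7.83, 16.1 and 23.6 CPM, a log2 fold change of 3.40 ± 0.36 (edgeR adjusted p = 2.4e-05).

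NOS3, the endothelial nitric oxide synthase, was at 9.72, 7.58 and 6.52 CPM with nonspecific and at 46.2, 48.2 and 67.0 CPM with paxillin siRNA. Its paxillin siRNA libraries were close together, and its rise of 2.76 ± 0.18 on the log2 scale had an edgeR adjusted p of 1.2e-07. GPNMB, a transmembrane glycoprotein of lysosomes and melanosomes, went from 8.61, 10.1 and 12.1 CPM to 36.6, 50.9 and 76.0 CPM (log2 fold change 2.40 ± 0.26, edgeR adjusted p = 2.4e-05). The other rises of this set ran from 1.5 to 1.88 on the log2 scale. They were GSTA1, a glutathione transferase; BCAS1, a gene first named from breast cancer amplicons; CLEC7A, the receptor Dectin-1; TNFSF15, a cytokine; SLC5A1, the sodium-coupled glucose transporter; MDGA1, a cell surface glycoprotein; KIAA1324; and TLN2, the adhesion protein talin-2. These rises, and the falls of the same kind below, were picked among genes whose groups did not overlap. The call of TNFSF15 was lost without paxillin siRNA DHT replicate 3, where its log2 fold change was 0.98 and the edgeR adjusted p 0.156, and also without nonspecific DHT replicate 1 (0.0729) or 2 (0.0665).

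Among genes with at least 100 CPM, the rises after CRISP3 were smaller. CHRNA2, a nicotinic acetylcholine receptor subunit, was at 59.8, 63.1 and 64.7 CPM with nonspecific and 124, 129 and 150 CPM with paxillin siRNA (log2 fold change 1.10 ± 0.08, edgeR adjusted p = 4.4e-07). PIK3R1, the regulatory p85-alpha subunit of phosphoinositide 3-kinase, rose by 1.02 on the log2 scale from 61.9, 81.1 and 83.9 CPM to 105, 153 and 203 CPM. IQGAP2, a scaffold that binds actin and small GTPases, rose by 0.89, from 63.1 to 68.4 CPM in the nonspecific and 114 to 133 CPM in the paxillin siRNA libraries. ALDH3B2, an aldehyde dehydrogenase, and GLYATL1, a glycine acyltransferase family member, rose by 0.82 and 0.78.

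Among non-overlapping genes of at least 5 CPM, the largest falls after PXN were those of S100P and PIK3AP1. S100P, a calcium-binding protein, went from 27.0, 24.2 and 20.9 CPM to 9.04, 6.49 and 2.56 CPM, a log2 fold change of -1.98 ± 0.34 (edgeR adjusted p = 0.00099). PIK3AP1, an adaptor that recruits phosphoinositide 3-kinase, went from 180, 160 and 151 CPM to 65.3, 50.3 and 39.7 CPM, with a log2 fold change of -1.66 ± 0.16 (edgeR adjusted p = 6.5e-06).

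MAP1B, a microtubule-associated protein, fell from 368, 345 and 285 CPM to 166, 152 and 106 CPM (log2 fold change -1.24 ± 0.15, edgeR adjusted p = 5.2e-05). MMP16, a membrane-bound matrix metalloproteinase, fell from 152, 144 and 131 CPM to 88.7, 64.9 and 46.5 CPM, or by 1.09 on the log2 scale. SLC25A43, a mitochondrial carrier, FAM19A4, a secreted neuropeptide-like protein, NEURL1, a ubiquitin ligase, SEMA6A, a semaphorin, KLF5, an epithelial transcription factor, DSC1, a desmosomal cadherin, and GIPC3 had log2 fold changes of -1.24 to -1.07. Of the genes above 100 CPM, PCK2, the mitochondrial phosphoenolpyruvate carboxykinase, went from 207, 257 and 252 CPM to 146, 132 and 114 CPM (log2 fold change -0.87 ± 0.11). CCNG1, cyclin G1, went from 175, 163 and 142 CPM to 101, 83.7 and 78.4 CPM, also by -0.87.

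**Figure D2:**
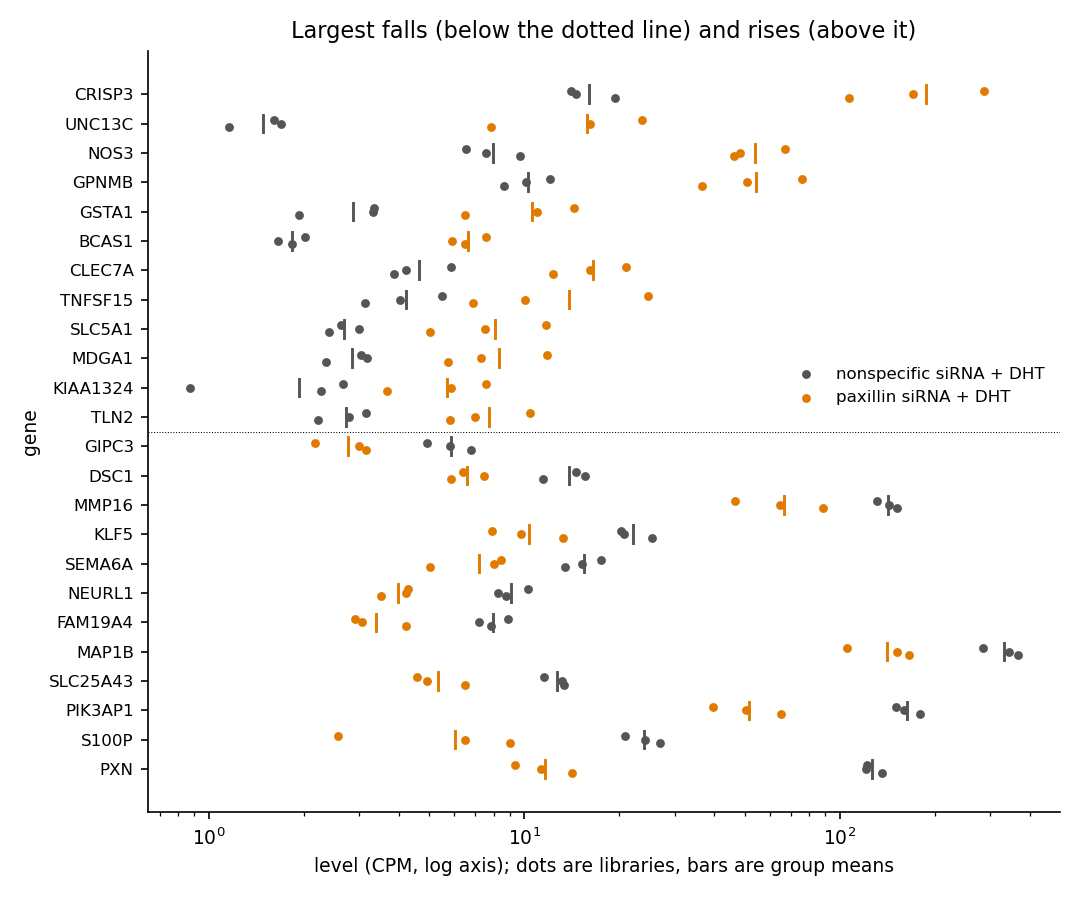
Levels in CPM (log axis) of the 12 largest falls and 12 largest rises among called genes with a mean of at least 5 CPM in a DHT group, picked from those whose groups do not overlap; each dot is a library and each bar a group mean. The paxillin siRNA libraries of CRISP3 spread from 107 to 287 CPM.

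Of the 39 gene lists, the one with the largest share of called members was that of ATF4 and the amino acid response. The lists were chosen with earlier results of these data known, so their shares and ranks are a description. ATF4 is the transcription factor that cells make more of when amino acids are short or the endoplasmic reticulum is stressed, and its targets import and synthesise amino acids and charge transfer RNAs. Under DHT, 22 of its 32 tested members fell with paxillin siRNA and none rose, against 7% and 6.34% of all genes tested. The same shares are the background for the DHT counts of every list below. In vehicle, 9.78% of all genes tested fell and 10.7% rose. The median log2 fold change of the list was -0.32, against 0.0021 over all genes. The number of falls was 16 to 22 when each of the 12 libraries was left out in turn.

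For 3 of its members a site of the kind that ATF4 binds together with C/EBP proteins lies close to the gene start, and these are shown because they belong to the largest falls of the list. The motif searched was TGATGNAA, on both strands, in the 250 bases before the RefSeq start on GRCh38.p14. The capitals mark the motif, on the reverse strand of the print for CHAC1 and FGF21.
FGF21: aacaccaggaTTGCATCAgggaggagga
CHAC1: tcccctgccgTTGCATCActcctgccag
ASNS: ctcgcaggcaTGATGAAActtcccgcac
The stretches are chr19:48755460-48755487 on the plus strand for FGF21, chr15:40953252-40953279 on the plus strand for CHAC1, and chr7:97872459-97872486 on the minus strand for ASNS. In GENCODE 29 the FGF21 stretch lies before the gene. The others lie in untranslated exon sequence of transcripts that start before the RefSeq start. The motif was found in 3 of the 27 list members with a promoter in the table (11.1%). All 3 were called lower, as were 19 of those 27 members. It was found in 1.41% of the 10461 matched promoters of genes tested and in 3.14% of all 35116 RefSeq promoters. The former took a single promoter for each gene and the latter every promoter, so these shares are not of like units. Among all genes called under DHT it was found in 21 of 710 promoters of falls (2.96%) and 9 of 751 of rises (1.2%). The list was drawn up around ATF4, so its share of matches is not independent of that choice. A match is a description of the letters, not evidence of binding.

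FGF21, a secreted metabolic hormone, was scarce, at 1.58, 1.87 and 1.27 CPM with nonspecific and 0.557, 0.197 and 0.0777 CPM with paxillin siRNA. The groups did not overlap, and the log2 fold change was -2.41 ± 0.43 (edgeR adjusted p = 0.0012). Without paxillin siRNA DHT replicate 1, the library with the most FGF21 in its group, it was -3.47. CHAC1, an enzyme that breaks down glutathione, went from 14.2, 18.4 and 16.4 CPM to 8.65, 9.33 and 6.10 CPM, a log2 fold change of -1.02 ± 0.14 (edgeR adjusted p = 0.00022).

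ASNS, asparagine synthetase, was abundant, at 183, 224 and 228 CPM with nonspecific and 123, 124 and 106 CPM with paxillin siRNA. Its log2 fold change was -0.85 ± 0.11 (edgeR adjusted p = 0.00013), and every paxillin siRNA library was below every nonspecific one. CTH, which makes cysteine from cystathionine, had a log2 fold change of -0.83 ± 0.15, from 24.3, 32.5 and 28.8 CPM to 18, 17 and 13 CPM.

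Members beyond these 4 were picked after their values were seen. The cystine transporter gene SLC7A11 fell by 0.82 on the log2 scale, the stress-induced cytokine gene GDF15 by 0.70, and the serine synthesis genes PSAT1 and PHGDH both by 0.52. ATF4 itself fell by 0.41 (edgeR adjusted p = 0.0019), from a mean of 488 to 366 CPM. The transfer RNA export gene XPOT had the smallest called fall, of 0.21. DDIT3, which encodes CHOP, and DDIT4 were not called, and ATF5 had the highest value of the list at 0.25 without a call. In vehicle 14 members fell and 1 rose, with a median of -0.23, and no member was called for a difference between the arms.

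**Figure D3:**
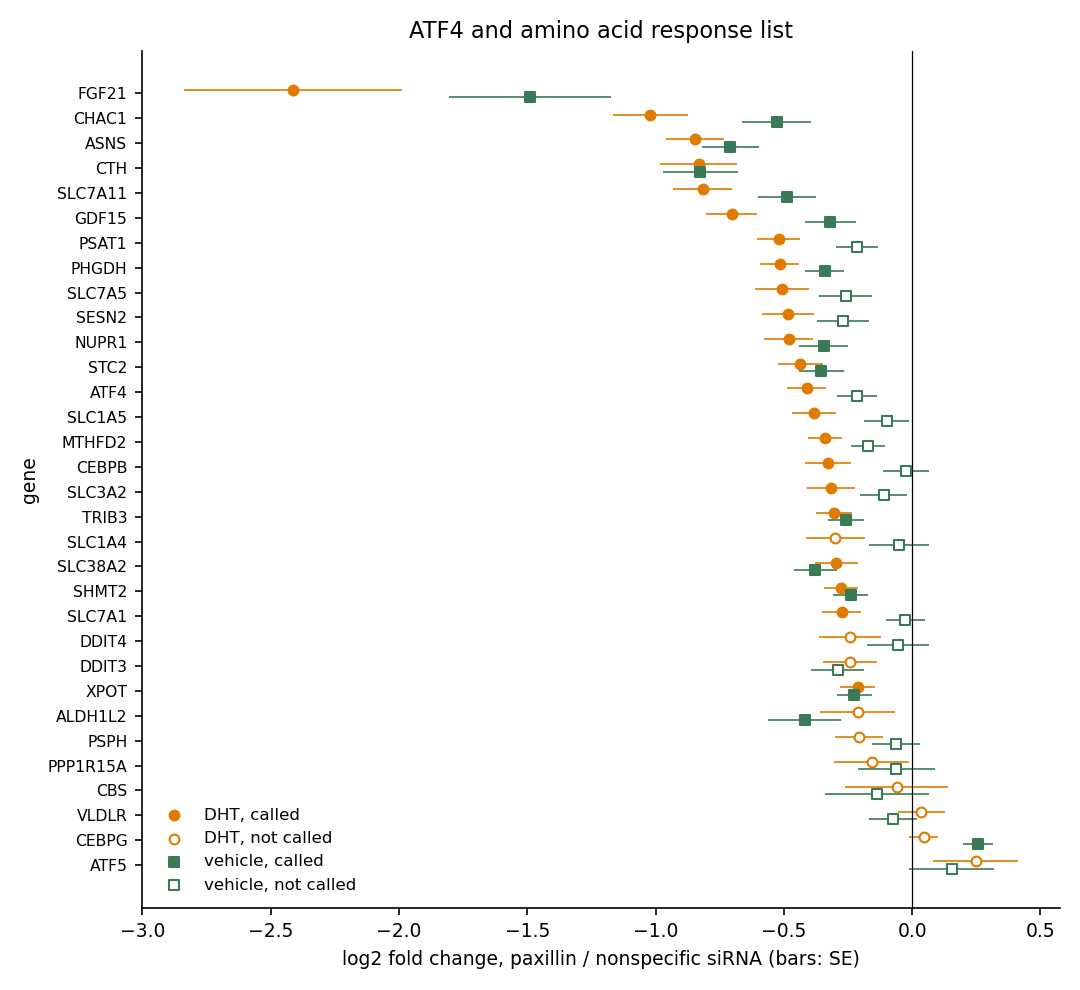
Log2 fold changes of paxillin over nonspecific siRNA with their SE for the 32 tested members of the ATF4 and amino acid list, under DHT (orange circles) and in vehicle (green squares); filled symbols were called. Under DHT 22 members are filled, all left of 0, from FGF21 at -2.41 to XPOT at -0.21.

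Targets of the tumour suppressor p53 were the list with the next largest share of falls. Of 29 tested, 12 fell and 2 rose, with a median log2 fold change of -0.28. CDKN1A, the cyclin-dependent kinase inhibitor p21, went from 479, 417 and 391 CPM to 315, 282 and 260 CPM (log2 fold change -0.59 ± 0.09, edgeR adjusted p = 0.00029). DDB2, a DNA damage recognition protein, went from 28.4, 27.2 and 25.1 CPM to 20.3, 18.3 and 17.0 CPM, or by -0.54. CCNG1, described above, and SESN2, a stress-induced regulator of mTORC1 that is also on the amino acid list, belong here too. SESN2 had a log2 fold change of -0.48.

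The risers of the p53 list were GADD45A, a growth arrest gene, at 0.64, and TP53INP1, which promotes autophagy, at 0.30. In vehicle 6 members fell and 2 rose. The number of falls under DHT dropped to 6 without nonspecific DHT replicate 1 and to 7 without paxillin siRNA DHT replicate 3.

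Some cell cycle genes were called lower as well. Of 40 mitosis genes tested, 11 fell and none rose, with a median of -0.20. MYBL2, a transcription factor of late cell cycle genes, went from 96.3, 88.7 and 100.4 CPM to 75.2, 67.7 and 61.6 CPM, a log2 fold change of -0.48 ± 0.08 (edgeR adjusted p = 0.00081). ESPL1, the protease separase, FOXM1, a mitotic transcription factor, and PLK1, a mitotic kinase, had log2 fold changes of -0.40, -0.38 and -0.35. The call of ESPL1 was lost without paxillin siRNA DHT replicate 3, that of FOXM1 without nonspecific DHT replicate 3, and that of PLK1 without nonspecific DHT replicate 3 or paxillin siRNA DHT replicate 1 (edgeR adjusted p of 0.0505 to 0.0924). The number of mitosis falls was 5 without nonspecific DHT replicate 3, 6 without nonspecific DHT replicate 2 or paxillin siRNA DHT replicate 1 or 3, and 7 without nonspecific DHT replicate 1.

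Of 47 DNA replication genes, 6 fell and none rose, against 7% and 6.34% of all genes tested, with a median of -0.067. TK1, thymidine kinase, went from 84.3, 93.0 and 96.8 CPM to 66.0, 72.8 and 68.9 CPM (log2 fold change -0.40 ± 0.08, edgeR adjusted p = 0.0021), and TYMS, thymidylate synthase, had a log2 fold change of -0.29. The count was 3 without nonspecific DHT replicate 2 or paxillin siRNA DHT replicate 3, and 2 without paxillin siRNA DHT replicate 2. In vehicle, where 10.7% of all genes tested rose and 9.78% fell, 9 replication genes rose and 1 fell, with a median of 0.14. There, 3 mitosis genes fell. No member of either list was called for a difference between the arms. Among the G1 cyclins, kinases and inhibitors, 2 of 22 rose and 4 fell, and 2 fell without nonspecific DHT replicate 1 or paxillin siRNA DHT replicate 2 or 3. CCND1, cyclin D1, was not called, at 483 to 551 CPM with nonspecific and 448 to 498 CPM with paxillin siRNA.

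Polyamines, small growth-related cations that prostate epithelium makes in large amounts, and hexosamine sugars formed the list with 9 falls and 1 rise among 28 tested (median -0.15). ODC1, ornithine decarboxylase, the first enzyme of polyamine synthesis and an androgen target, was at 3986, 3477 and 3554 CPM with nonspecific and 2737, 2751 and 2454 CPM with paxillin siRNA. The groups did not overlap and the log2 fold change was -0.47 ± 0.08 (edgeR adjusted p = 0.00088). SRM, spermidine synthase, had a log2 fold change of -0.42, and the glycosyltransferases GALNT3 and GALNT7 had -0.59 and -0.49. SMS, spermine synthase, which uses the product of SRM, rose instead, from 606, 495 and 495 CPM to 838, 792 and 717 CPM (log2 fold change 0.56 ± 0.09, edgeR adjusted p = 0.00043). Leaving out single libraries gave 9 or 10 falls and 1 rise.

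Genes of the site where paxillin works moved in both directions. Of 45 focal adhesion adaptors and kinases tested, 8 rose and 4 fell, with a median of 0.079. TLN2, which links integrins to actin, went from 2.23, 2.79 and 3.15 CPM to 5.83, 6.97 and 10.4 CPM (log2 fold change 1.5 ± 0.21, edgeR adjusted p = 0.00021). CRK, an adaptor that binds phosphorylated paxillin, rose by 0.56, NEDD9, a docking protein of the p130Cas family, by 0.55, and PTK2B, the kinase PYK2, by 0.46.

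On the falling side were TES at -0.55, LIMS1 at -0.45, RSU1 at -0.34 and ZYX at -0.25, which encode the LIM domain protein testin, PINCH, its binding partner RSU-1 and zyxin. The rises numbered 5 without nonspecific DHT replicate 2 or paxillin siRNA DHT replicate 3. With the replicate block the falls numbered 7. The call of ZYX was lost without any of nonspecific DHT replicates 1, 2 and 3 or paxillin siRNA DHT replicates 2 and 3, with an edgeR adjusted p of up to 0.119. Other core genes of the site were not called: PTK2, focal adhesion kinase, had a log2 fold change of -0.01 ± 0.07, VCL, vinculin, -0.07 ± 0.08, and TLN1, talin-1, -0.12 ± 0.06.

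Of 28 integrin and matrix genes, 6 fell and 2 rose. ITGAV, the integrin alpha-V subunit, went from 163, 146 and 157 CPM to 117, 104 and 105 CPM (log2 fold change -0.51 ± 0.08, edgeR adjusted p = 0.00044), and its partner ITGB5 had a log2 fold change of -0.51. LAMB1, a laminin chain, had -0.67. The 2 rises of the list, LAMC1 and ITGA1, were both lost without nonspecific DHT replicate 1 or 2 or paxillin siRNA DHT replicate 2 or 3.

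Genes downstream of the ERK kinases were mostly without a call. Of 23 immediate early and ERK feedback genes tested, JUN rose, from 38.1, 32.3 and 29.1 CPM to 60.2, 60.6 and 59.1 CPM (log2 fold change 0.86 ± 0.09, edgeR adjusted p = 2.4e-05). SRF, the transcription factor of actin and immediate early genes, fell by 0.46, and ETV5 fell from a level of 0.424 CPM, a call lost without paxillin siRNA DHT replicate 3 (edgeR adjusted p = 0.0579). FOS and EGR1 were scarce, at 0.350 to 1.67 and 0.685 to 1.18 CPM over the 6 libraries, and were not called (edgeR adjusted p of 0.26 and 0.94), and MYC had a log2 fold change of -0.24 with an adjusted p of 0.36. MYC was called lower with the replicate block (edgeR adjusted p = 0.0087). With the block 2 genes of this list rose and 5 fell, and 3 rose without nonspecific DHT replicate 1. Of 20 tested YAP and TEAD targets, 4 fell and 1 rose; CRIM1, a transmembrane protein gene, had a log2 fold change of -1.08, AMOTL1, an angiomotin family gene, of -0.96 and PTPN14, a phosphatase gene, of -0.82. Without paxillin siRNA DHT replicate 2, 2 of these targets fell and none rose, and CRIM1 was not called (edgeR adjusted p = 0.0513).

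Among receptor tyrosine kinases and their ligands, 6 of 28 fell and 1 rose, with a median of -0.14. MET, the receptor of hepatocyte growth factor, had the lowest log2 fold change of the list at -1.28, from 0.566 to 0.643 CPM down to 0.194 to 0.354 CPM, EPHA3, an ephrin receptor, had -0.86, and TGFA, a ligand of the epidermal growth factor receptor, rose by 0.86. The call of MET was lost without any of nonspecific DHT replicates 1, 2 and 3 or paxillin siRNA DHT replicates 1 and 3, with an edgeR adjusted p of up to 0.0955, and that of TGFA without paxillin siRNA DHT replicate 3 (0.0524). VEGFA, the vascular growth factor, went from 432, 407 and 366 CPM to 334, 288 and 245 CPM, a log2 fold change of -0.47 ± 0.10 (edgeR adjusted p = 0.0042). The chemokine gene CXCL12, of the cytokine list, was lower by more, from 77.0, 65.5 and 59.2 CPM to 38.3, 29 and 29 CPM (log2 fold change -1.06 ± 0.16, edgeR adjusted p = 0.00029). Its receptor gene ACKR3 had a log2 fold change of -0.59.

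**Figure D4:**
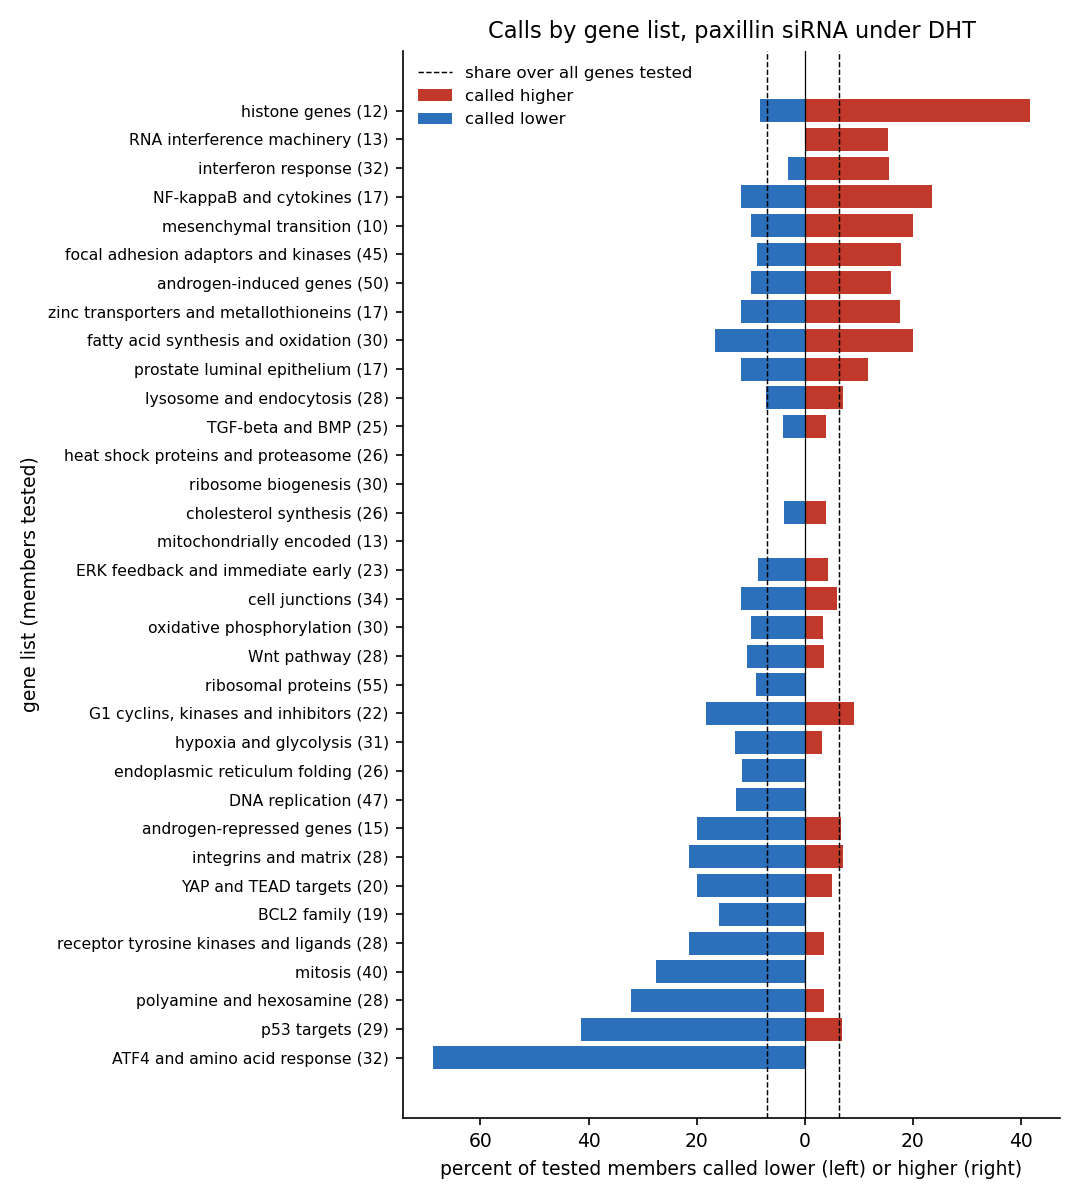
Percent of tested members called lower (blue, left) or higher (red, right) with paxillin siRNA under DHT in each gene list shown, all with at least 10 tested members; dashed lines mark the shares over all genes tested, 7% and 6.34%. The ATF4, p53, polyamine and mitosis lists reach furthest to the left, with 22 of 32, 12 of 29, 9 of 28 and 11 of 40 members.

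Classical androgen targets were divided. Of 50 androgen-induced genes tested, 8 rose and 5 fell with paxillin siRNA, and the median log2 fold change was -0.045. KLK3, which encodes prostate-specific antigen, was at 8776, 8720 and 8885 CPM with nonspecific and 8165, 8246 and 7944 CPM with paxillin siRNA. The libraries did not overlap, but the log2 fold change of -0.12 ± 0.11 was not called (edgeR adjusted p = 0.52). TMPRSS2, a membrane protease gene, had -0.14 ± 0.14 (edgeR adjusted p = 0.59), and FKBP5, a steroid receptor chaperone gene, -0.26 ± 0.09 (edgeR adjusted p = 0.068). FKBP5 was called lower without nonspecific DHT replicate 2 (edgeR adjusted p = 0.0397), without paxillin siRNA DHT replicate 1 (0.0174) and with the replicate block (0.0093).

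The androgen-induced genes that rose most were CHRNA2, TUBA3D and STEAP4. TUBA3D, an alpha-tubulin, went from 32.5, 37.4 and 37.6 CPM to 67.9, 80.0 and 80.8 CPM (log2 fold change 1.09 ± 0.09, edgeR adjusted p = 2.4e-06); it has a near-identical paralog, so its reads are uncertain. STEAP4, a metalloreductase, went from 22.7, 17.1 and 20.2 CPM to 37.4, 39.5 and 41.5 CPM, while every vehicle library was under 1 CPM. INPP4B, a phosphoinositide phosphatase, rose by 0.81.

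Those that fell most were ELOVL7, a fatty acid elongase, at -0.72, ODC1 at -0.47, and ELL2, a transcription elongation factor, at -0.34. The rises numbered 5, against 6 falls, without nonspecific DHT replicate 2, and 5 without paxillin siRNA DHT replicate 3. The falls ran from 3, without paxillin siRNA DHT replicate 2, to 8, without paxillin siRNA DHT replicate 1 or paxillin siRNA vehicle replicate 1, and numbered 13, against 11 rises, with the replicate block. Among 15 androgen-repressed genes 3 fell and 1 rose, which was UGT2B15, an enzyme that conjugates DHT, at 2.51 (0.0857 to 0.262 CPM and 0.361 to 1.51 CPM; call lost without nonspecific DHT replicate 1 or 2 or paxillin siRNA DHT replicate 2 or 3, with an edgeR adjusted p of up to 0.143). The falls numbered 1 without nonspecific DHT replicate 2. ACPP, prostatic acid phosphatase, of the luminal markers, rose from 50.5, 63.8 and 59.2 CPM to 78.0, 94.8 and 115 CPM (log2 fold change 0.73 ± 0.11, edgeR adjusted p = 0.00031). Among the 17 luminal markers tested 2 rose and 2 fell, with a median of -0.041. The other rise was CDH1 at 0.27, and the falls were HOXB13 at -0.28 and FOLH1 at -0.22. Without nonspecific DHT replicate 2 or paxillin siRNA DHT replicate 2 or 3 there was 1 rise and no fall.

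Several other lists held few calls or calls in both directions. SCD, the stearoyl-CoA desaturase, had a log2 fold change of -0.44, from 4881 to 5265 CPM down to 3570 to 3877 CPM, in a fatty acid list with 6 rises and 5 falls among 30. The rises of that list numbered 1 without nonspecific DHT replicate 2 or paxillin siRNA DHT replicate 3, 2 without nonspecific DHT replicate 1, and 3 without paxillin siRNA DHT replicate 2 or replicate 2 of either vehicle group. Of 34 junction genes 2 rose and 4 fell, with the desmosomal cadherin genes DSG2 and DSC2 at -0.50 and -0.43, and GJB1, a gap junction gene, at 0.83. LDHB, a lactate dehydrogenase subunit, had -0.68 in a glycolysis and hypoxia list with 4 falls and 1 rise among 31; the falls numbered 2 without nonspecific DHT replicate 1 or paxillin siRNA DHT replicate 3, and 8 with the replicate block. VIM, the intermediate filament gene vimentin, rose from 12.9, 11.9 and 9.71 CPM to 21.6, 29.7 and 26.7 CPM, a log2 fold change of 1.18 ± 0.15 (edgeR adjusted p = 9.1e-05). It belongs to a mesenchymal transition list of 10 tested genes with 2 rises, 1 fall and a median of -0.12. Summed levels of that list were lower, at 334 to 359 CPM with nonspecific and 278 to 312 CPM with paxillin siRNA. Its rises numbered 1 without nonspecific DHT replicate 2 or 3 or paxillin siRNA DHT replicate 1 or 2. No gene was called among 26 heat shock and proteasome genes, 30 ribosome biogenesis genes or 13 mitochondrially encoded genes; with the replicate block these counts were 4, 3 and 5, and without nonspecific DHT replicate 3 there were 6 mitochondrially encoded rises.

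The 55 ribosomal protein genes stood apart in how far their calls depended on the fit. Their median log2 fold change was -0.22 and 5 were called lower, among them RPS12 at -0.38 and RPS21 at -0.37. With the replicate block 39 were called lower, with upper-quartile scaling 10, and with single libraries left out 0 to 14. There was no call without nonspecific DHT replicate 1 or 2 or paxillin siRNA DHT replicate 3. Summed levels of the list overlapped, at 45400 to 54300 CPM with nonspecific and 38000 to 46400 CPM with paxillin siRNA.

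Histone genes had the largest share of rises, with 5 of 12 higher, 1 lower and a median of 0.35. HIST1H3H went from 19.5, 21.7 and 20.2 CPM to 27.7, 29.7 and 32.1 CPM (log2 fold change 0.54 ± 0.09, edgeR adjusted p = 0.00095), while the linker histone gene HIST1H1C fell by 0.53. Most histone messages lack a poly(A) tail, so libraries made from poly(A) RNA hold few of them. The number of rises was 1 without nonspecific DHT replicate 1 or 2 or paxillin siRNA DHT replicate 3, 2 without paxillin siRNA DHT replicate 2, and 9 with the replicate block.

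Genes that respond to foreign RNA or serve RNA interference were listed because the cells carried siRNAs. AGO2, the Argonaute protein that cleaves siRNA targets, went from 150, 135 and 125 CPM to 192, 206 and 206 CPM (log2 fold change 0.56 ± 0.07, edgeR adjusted p = 0.00012). DICER1, the nuclease that cuts small RNAs from longer ones, rose by 0.58 (edgeR adjusted p of 0.0644 without paxillin siRNA DHT replicate 3), and the other 11 of 13 were not called. Of 32 interferon response genes, 5 rose and B2M fell, with a median of 0.19. The rises numbered 0 without nonspecific DHT replicate 3, 1 without nonspecific DHT replicate 1 or paxillin siRNA DHT replicate 3, 2 without paxillin siRNA DHT replicate 2, 8 without paxillin siRNA DHT replicate 1, and 9 with the replicate block.

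The same siRNA comparison in vehicle contrasted libraries that the DHT comparison did not. Both came from the same fit of all 12 libraries, with a shared estimate of the spread. Same-numbered libraries also correlated across the arms, at up to 0.482 in their deviations from group means. The tests in the arms were therefore not independent, and their shared calls are given as a description. In vehicle, 1727 genes rose (10.7%) and 1576 fell (9.78%). Of the genes that rose under DHT, 637 also rose in vehicle, which is 62.4% of the DHT rises and 36.9% of the vehicle rises. Of those that fell, 700 fell in both arms, 62.1% and 44.4%. Opposite calls were made for 2 genes in each direction. Of the 2149 genes called under DHT, 2060 (95.9%) had the same sign in vehicle. Across 11098 genes with at least 5 CPM in a group, the log2 fold changes of the arms had a Pearson r of 0.765 and a Spearman rho of 0.686; the points are genes, which are not independent replicates.

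The genes called higher in vehicle had a median log2 fold change of 0.41 there and 0.24 under DHT. Those called lower in vehicle had medians of -0.40 and -0.27. In the 3 numbered pairs of DHT libraries the medians were 0.20, 0.23 and 0.28 for the former and -0.23, -0.26 and -0.30 for the latter. The vehicle medians come from the comparison that chose the genes and are given as a description.

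A difference between the arms was tested gene by gene. It was called for 8 of 16115 genes (0.0496%), 6 with a higher (0.0372%) and 2 with a lower value (0.0124%) under DHT, while 1435 had an unadjusted p under 0.05, and with the replicate block for 97 (0.602%). CDC42EP3, an effector of the small GTPase CDC42, was at 28.8, 25.7 and 27.6 CPM with nonspecific and 55.1, 65.8 and 80.1 CPM with paxillin siRNA under DHT. In vehicle it was at 14.2, 13.4 and 12.7 CPM and 17, 14 and 15.1 CPM. Its log2 fold change was thus 1.29 ± 0.11 under DHT and 0.20 in vehicle, with an adjusted p of the difference of 0.0368 by edgeR. Leaving out single libraries gave adjusted p of 0.00136 to 0.15 for that difference by edgeR, with the call lost without any of 8 of the 12 libraries. Of the 8 genes, CDC42EP3 and ZNF737, a zinc finger gene, were the ones called under DHT itself.

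**Figure D5:**
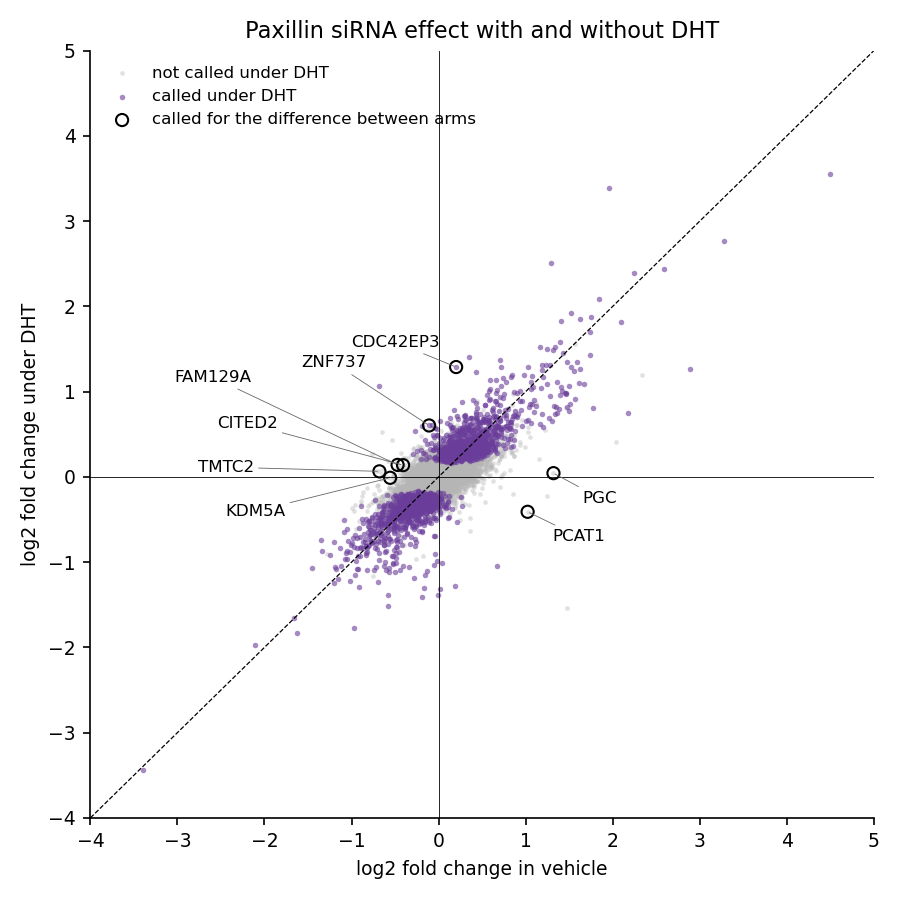
Log2 fold changes of paxillin over nonspecific siRNA in vehicle (x axis) and under DHT (y axis) for 11098 genes with at least 5 CPM in a group; purple genes were called under DHT, open circles mark the 8 genes called for the difference between the arms, and the dashed line marks equal change. Most purple genes lie at the lower left and upper right, and CDC42EP3 lies near 0 on the x axis and at 1.29 on the y axis.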

How the data were processed

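RNA of 12 C4-2 libraries was sequenced, 3 in each of 4 groups set by siRNA and treatment. The values are whole-number read counts per gene, deposited by the authors in 1 table. Per the submitters' processing notes, Trimmomatic 0.36, STAR 2.5.2b and featureCounts of Subread 1.5.0p3 were used with GRCh38; for the annotation release and the strand setting of counting, the choice is not given in the sources used here. Symbols of 14252 of the 16115 genes tested matched GENCODE 29, which gave gene types and positions.

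Genes were filtered with filterByExpr (minimum count 10, minimum total 15), scaled with TMM and fitted with edgeR 4.0.16 in R 4.3.3 (limma 3.58.1, DESeq2 1.42.0 for alternatives). The quasi-likelihood fit held all 12 libraries and 4 group means, with 8 residual degrees of freedom. The comparisons were paxillin against nonspecific siRNA under DHT, the same in vehicle, and their difference. P-values were two-sided and Benjamini-Hochberg adjusted over all genes tested, and a gene was called at an adjusted p under 0.05. CPM values were made from the counts and TMM-scaled library sizes. Each SE was worked back from the test, as the absolute log2 fold change divided by the square root of the quasi-likelihood F statistic. The scripts were tested on simulated data.

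The members and the 39 gene lists were chosen with earlier results of these data known. Named genes were the 12 largest rises and falls among called, non-overlapping genes of at least 5 CPM, the 6 largest each way of at least 100 CPM, up to 4 called members each way of each list, a fixed panel, and the up to 5 largest differences each way between the arms; pseudogenes, antisense and clone-type names were left out of all but the lists and the panel.

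Replicate numbers in the labels were checked for pairing over 10701 genes of at least 5 CPM. Deviations from group means of same-numbered libraries correlated at 0.144 to 0.482 in all 18 pairs, and at -0.426 to 0.213 in 36 pairs with different numbers, so the numbers were taken to pair the libraries. The main fit left this pairing out, so a gene not called in it may be called with the replicate block. Alternatives were other scalings, no filter, other tools, the replicate block, the compared groups alone, a stricter threshold, a 1.2-fold minimum, each library left out, and, chosen after seeing the data, protein coding genes alone. Some results of the lists and the panel are not reported here.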

Additional observations from a re-analysis of the deposited data

Results flagged for a closer look

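For 8 genes the effect of paxillin siRNA differed between the DHT and vehicle arms by the test of the difference itself, with edgeR adjusted p of 0.0368 for CDC42EP3 and KDM5A and 0.0436 for the others. The log2 effect under DHT minus that in vehicle was 1.09 for CDC42EP3, 0.745 for TMTC2, 0.712 for ZNF737, 0.612 for FAM129A, 0.546 for KDM5A and 0.545 for CITED2. It was -1.28 for PGC and -1.43 for PCAT1. CITED2 lies outside the naming rule and was named after its value was seen. All 8 were called with the replicate block and with DESeq2, and none with limma-voom. Of 96 refits of these genes with 1 library left out, the call was kept in 21.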

How the results depend on the processing

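None of the called genes among the 193 named by rule turned its direction under any alternative run. Genes named outside that set, such as SLC7A11, ATF4 and XPOT, were not followed in all of these runs. The uncalled log2 fold changes of EGR1, LPXN, PTK2, PGC, KDM5A and TMTC2 under DHT changed sign in some, and the median over all genes tested was -0.0081 with upper-quartile scaling. With the replicate block the DHT comparison gave 1681 rises and 1805 falls and lost no call, and the difference between the arms gave 97 genes; with the compared groups alone and the block the counts were 2023 and 2173. At an adjusted p under 0.01 there were 411 rises and 543 falls under DHT (93 and 142 of at least 2-fold), 865 and 786 in vehicle, and 0 differences between the arms. Against a 1.2-fold minimum there were 237 and 335 under DHT (104 rises of at least 2-fold), 434 and 385 in vehicle, and 0 differences. Without a filter 435 falls of at least 2-fold and 142 differences were called, and among protein coding genes alone 81 such falls. Differences between the arms numbered 57 with DESeq2 and 0 with limma-voom. Leaving out 1 library gave 484 to 1152 rises and 694 to 1319 falls under DHT, 91 to 232 and 189 to 321 of at least 2-fold, 987 to 1902 rises and 861 to 1622 falls in vehicle, and 0 to 26 differences. The lowest DHT counts came without paxillin siRNA DHT replicate 3, the lowest vehicle counts without paxillin siRNA vehicle replicate 3, and the 26 differences without paxillin siRNA vehicle replicate 1. The cause was not tested. Upper-quartile scaling gave 953 rises and 1248 falls. Of the 193 named genes, the 6 that DESeq2 and the 9 that limma-voom did not call kept their direction. The 3 libraries per group, and 1 count being worth 0.0328 to 0.0436 CPM, limit what can be said of genes under 1 CPM.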

Other observations

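Zinc transport and cytokine genes also held calls under DHT. SLC30A4 and SLC39A8, which encode zinc transporters, went from 393 to 440 CPM down to 308 to 321 CPM (log2 fold change -0.42 ± 0.08, edgeR adjusted p = 0.0014) and from 221 to 235 CPM down to 173 to 194 CPM (-0.35 ± 0.06, edgeR adjusted p = 0.00087). Of 17 genes of that list 3 rose and 2 fell (5 each way with the replicate block), and the rises numbered 0 without nonspecific DHT replicate 2 and 1 without nonspecific DHT replicate 1 or 3 or paxillin siRNA DHT replicate 3. Of 17 NF-kappaB and cytokine genes 4 rose and 2 fell, with 5 falls and 5 rises without paxillin siRNA DHT replicate 1 and 5 falls with the replicate block. There was 1 fall without any of the other 5 DHT libraries or paxillin siRNA vehicle replicate 2. TNFAIP2, induced by tumour necrosis factor, rose from 1.93, 2.53 and 2.47 CPM to 3.87, 4.29 and 4.27 CPM (log2 fold change 0.84 ± 0.16, edgeR adjusted p = 0.0023). The rises of that list numbered 1 without nonspecific DHT replicate 2 or 3 or paxillin siRNA DHT replicate 3, and 2 without nonspecific DHT replicate 1. ERN1, a sensor of unfolded proteins, fell from 107, 111 and 107 CPM to 88.7, 81.2 and 75.9 CPM (log2 fold change -0.40 ± 0.07, edgeR adjusted p = 0.0013).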
